A study of Mus musculus with 2 samples.

Results

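The 10 genes described here, Pou5f1, Sox2, Nanog, Utf1, Dppa3, Dppa4, Dppa5a, Tfap2c, Prdm1 and Prdm14, are regulators or markers of pluripotency and of early germ cells. They were taken by symbol from the 27998 gene rows of single-cell count matrices of the E15.5 mouse ovary, and all 10 had a row. Each gene was followed across the stages that germ cells pass through as they enter meiosis, in the somatic cells of the same ovaries, and between ovaries with and without the glucocorticoid receptor (GR, encoded by Nr3c1).

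The KO library came from female embryos homozygous for a GR deletion, in which exon 3 of the floxed allele Nr3c1tm1.1Jda had been removed by a constitutive β-actin Cre, so that GR was lost in germ cells and somatic cells alike. The WT library came from E15.5 female embryos with wildtype GR. The KO pool held the ovaries of 2 embryos and the WT pool those of 4, and each pool gave 1 library, so no comparison below has a replicate. The strain field of both libraries lists Tg(Pou5f1-EGFP)2Mnn, a transgene in which Pou5f1 regulatory sequence drives green fluorescent protein (GFP). Germ cells were sorted on that GFP and mixed with somatic cells at 60 to 40, and the level of Pou5f1 in germ cells against soma is therefore part of what the sort selected.

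Pou5f1, Sox2 and Nanog form the core of the transcription factor network that keeps embryonic stem cells pluripotent. Primordial germ cells, the founders of the germ line, switch this network back on under Prdm1, Prdm14 and Tfap2c, and carry it into the gonad. In the fetal ovary the network is shut down when germ cells stop dividing and enter meiotic prophase, a step that requires Stra8, and oocytes later make some of these proteins again for the embryo to come.

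The KO library held 17829 cell barcodes with 186117981 unique molecular identifiers (UMIs, 1 for each captured transcript), and the WT library 11430 barcodes with 168483330 UMIs. After the cell limits of the study, 15502 KO and 9045 WT cells remained, with a median of 10194.5 and 15685 UMIs. Of these, 10180 KO and 6786 WT cells were germ-like, and 5266 and 2244 fell in 5 classes that are called somatic-like below: theca-like, granulosa-like, immune-like, epithelia-like and endothelia-like. A further 56 and 15 erythroid-like cells were left out of that sum. The libraries shared 75 cell barcodes, 27 of them among kept cells. Nr3c1 stood at 11.6 counts per 1000000 UMIs (CPM) in KO and 71.9 CPM in WT germ-like cells, and transcripts that lost exon 3 still count for the gene.

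Germ-like cells fell into 7 clusters, none of which was defined by the 10 genes or by related pluripotency genes, since these were kept out of the clustering. Of the 7, 6 were ordered by their meiotic genes, later prophase markers minus premeiotic and meiotic entry markers, and are called stage 1 to stage 6. This order was chosen after the clusters were seen, in place of a prophase score under which stage 6 would come right after stage 1 and stage 3 would come last. By the same markers taken cell by cell, stages 4, 5 and 6 lay close, with medians of 0.3707, 0.3715 and 0.3869 in KO. In WT the medians were 0.3799, 0.3616 and 0.3922, so the order among these stages is uncertain. The other cluster, of 164 cells, carried granulosa markers, held 41.5% cells called doublets, and was not placed in the order. Stage 1 (565 KO and 276 WT cells) was led by Rhox5, Rec8 and Phlda2. Stage 2 (1388 and 474 cells) was led by Stra8, stage 3 (1910 and 1317 cells) had the highest Prdm9, a histone methyltransferase that places recombination, and stage 5 (1945 and 1371 cells) had the highest Sycp1, a structural protein of paired chromosomes. Stage 4 (1938 and 1279 cells) lay between these and was led by Nacad. Stage 6 (2336 and 2003 cells) was led by Sohlh1, a transcription factor of oocyte differentiation.

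Stra8 stood at 1570, 1132, 189, 92.7, 40.2 and 24.6 CPM in KO stages 1 to 6. In WT it stood at 1664, 1057, 143, 39.9, 29.0 and 114 CPM. Stra8 thus dropped between stages 2 and 3 in both libraries. The WT library alone had more of it in stage 6 than in stage 5. This WT stage 6 level came mostly from few cells. After all cells were thinned at random to an equal depth, 145 of 2003 still held a Stra8 UMI. At full depth these held 3713 of the 4310 Stra8 UMIs, at 829 CPM and a median of 33105 UMIs. The other 1858 cells stood at 17.85 CPM. Stage 5 was not split in this way, so that value cannot be set against its level. As a meiotic entry marker, Stra8 was itself part of what set the order. Stages 1 and 2 are cells with high Stra8, and no cluster without Stra8 preceded them.

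**Figure D1:**
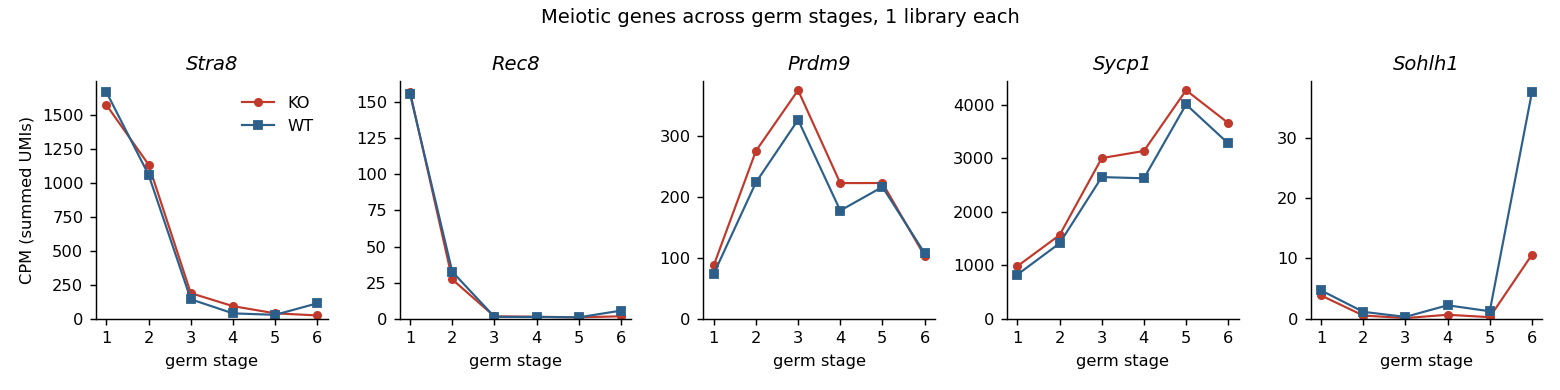
Level of 5 meiotic genes (vertical axes, CPM of UMIs summed over cells) against germ stage (horizontal axes, 1 to 6) in the KO library (circles) and the WT library (squares). Stra8 and Rec8 were highest in stages 1 and 2, Prdm9 in stage 3, Sycp1 in stage 5 and Sohlh1 in stage 6, where it stood at 10.6 CPM in KO and 37.5 CPM in WT. All but Prdm9 were among the markers that set the order, so their early or late place is no check on it.

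Across the stages, the pluripotency genes did not leave together. From stage 1 to stage 3 all 6 members with enough UMIs for the comparison in both libraries, Pou5f1, Sox2, Utf1, Dppa3, Dppa4 and Dppa5a, were at least 2-fold lower. From stage 3 to stage 6 they parted: Pou5f1 and Dppa4 were at least 2-fold higher again in both libraries, and Utf1 and Dppa5a were not. Dppa3 was called in WT alone, at the limit (2.00-fold). A gene was counted as called when its CPM differed at least 2-fold and it had at least 100 UMIs over both stages. With 1 library a group no test was run, and every interval below is a 95% interval that covers counting error only.

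The counts stand beside those of all genes. Between stages 1 and 3, 6 of 7 members tested in KO and 6 of 6 in WT were at least 2-fold lower, against 16.7% and 15.7% of all genes tested. Their median log2 ratio was -2.82 in KO and -3.76 in WT, where that of all genes was -0.04 and 0.02. Between stages 1 and 6, 5 of 6 members were lower in each library, against 12.3% of all genes in KO and 10.3% in WT, and no member was at least 2-fold higher, against 16.4% and 18.6%. Between stages 3 and 6, 2 of 5 members in KO and 3 of 5 in WT were at least 2-fold higher, against 18.2% and 21.6% of all genes. Tfap2c, Nanog and Prdm14 had too few UMIs for any of these stage comparisons, and Prdm1 had enough only between KO stages 1 and 3. The minimum is over both stages together, so a gene low in stage 3 entered through the other stage. That favours a fall from stage 1 among genes with few UMIs. Sox2 entered that comparison with 296 UMIs in stage 1 and 9 in stage 3 of KO, and 166 and 11 in WT. Sox2 was left out between stages 3 and 6, where stage 6 stood at 7.16-fold (KO) and 3.67-fold (WT) the stage 3 level.

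**Figure D2:**
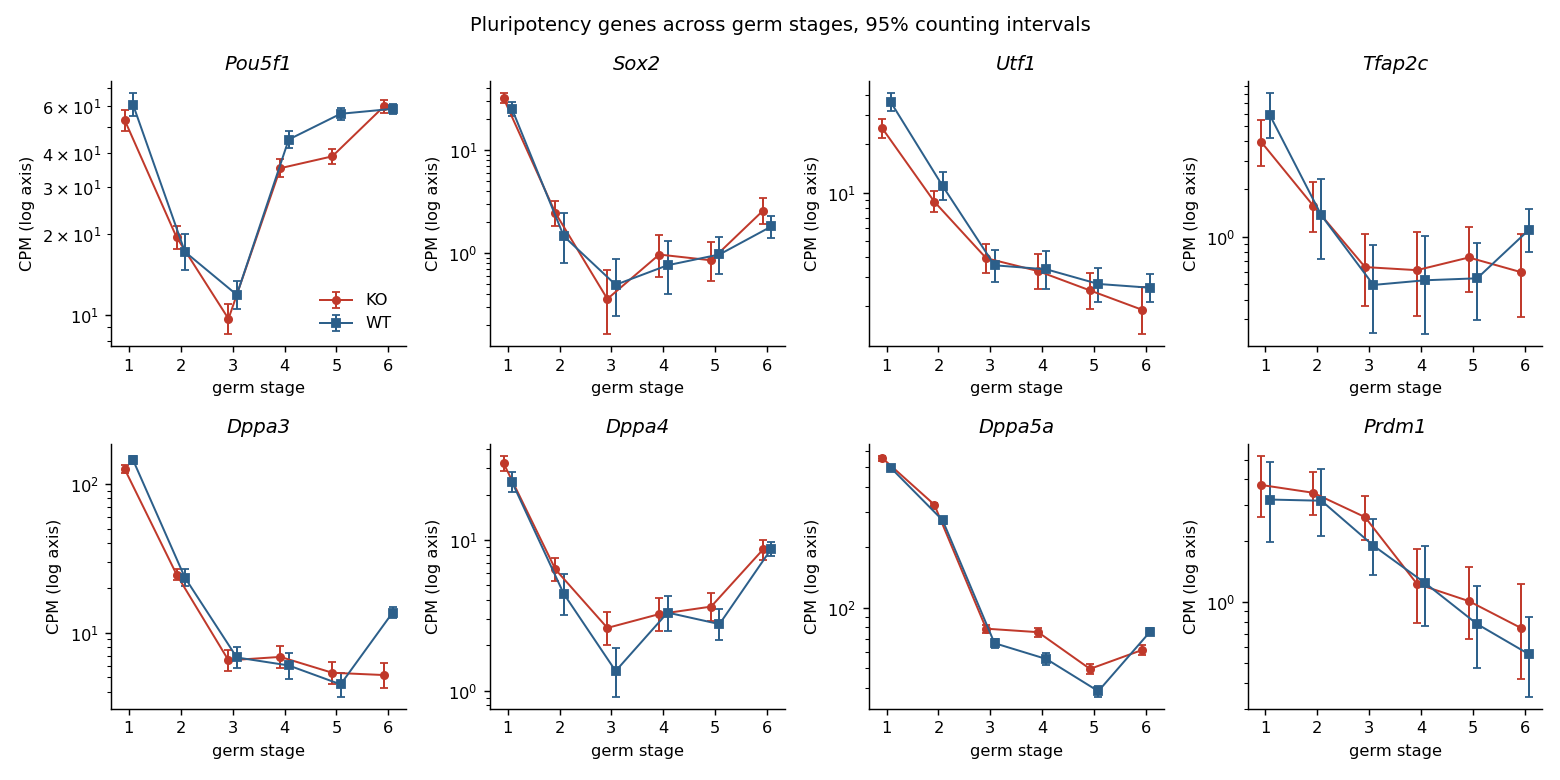
Level of 8 pluripotency genes (vertical axes, CPM, log axis) against germ stage (horizontal axes) in KO (circles) and WT (squares), with 95% counting intervals as bars. Sox2, Utf1, Dppa3, Dppa4 and Dppa5a fell from stage 1 to stage 3, whereas Pou5f1 fell to 9.67 CPM in KO and 11.9 CPM in WT in stage 3 and stood at 59.8 and 58.4 CPM in stage 6; Nanog and Prdm14, with at most 17 UMIs in the germ-like cells of a library, are not drawn.

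Pou5f1 encodes OCT4, a POU-domain transcription factor on which pluripotency depends. Its gene lies on chromosome 17 at 35506018-35510772 on the plus strand (GRCm38, the assembly known as mm10). In KO its level was 53.1, 19.4, 9.67, 35.2, 38.9 and 59.8 CPM from stage 1 to stage 6, and in WT 60.6, 17.2, 11.9, 44.9, 56.0 and 58.4 CPM. Stage 3 was lowest in both libraries, and stage 6 stood close to stage 1. The fall from stage 1 to stage 3 was 5.49-fold in KO (log2 ratio -2.46, interval -2.68 to -2.23) and 5.10-fold in WT (-2.35, -2.58 to -2.12). The later climb was 6.18-fold in KO and 4.92-fold in WT. Both the dip and the climb depended on how cells were staged. In the order by prophase score that had been planned, the last cluster was lower than the first, at a log2 ratio of -2.46 in KO and -2.35 in WT, and in 5 quintiles of cells by that score the ratio was -2.71 and -2.18, so that Pou5f1 ended below its start, where in the order used here it ended close to it. With the germ-like cells cut into 5 equal quintiles by the markers of the order used here, Pou5f1 went from 28.1 to 21.0 CPM between the first and the next quintile in KO and from 29.5 to 30.99 CPM in WT. It reached 47.5 and 60.2 CPM in the last quintile, so that the later climb was kept in both libraries in these quintiles and the early fall was kept in KO alone. Over the whole course the log2 ratio of stage 6 to stage 1 was 0.17 (0.02 to 0.33) in KO and -0.05 (-0.21 to 0.10) in WT.

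The higher Pou5f1 of stage 6 than of stage 3 was seen in the share of cells as well as in the summed level. Both measures use the same clusters, so the share does not bear on their order in time. After every cell was thinned at random to 3000 UMIs, 12.6% of KO stage 1 cells, 2.83% of stage 3 cells and 14.2% of stage 6 cells held a Pou5f1 UMI. The WT shares were 13.4%, 3.65% and 15.0%. In somatic-like cells, most of which should lack OCT4, the thinned share was 1.158% in KO and 1.248% in WT. The median depth before thinning was 11310.5 UMIs in KO germ-like and 8426.5 in KO somatic-like cells, and 17099.5 and 12403.5 in WT. The stage 3 share thus lay above the somatic share and below every other stage. The germ cells carried the transgene and the counts name genes only, so whether transcripts of the transgene were counted for Pou5f1 was not tested. A long noncoding gene, Gm19553, overlaps Pou5f1 on the other strand.

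Sox2, the HMG-box partner with which OCT4 binds DNA, had the steepest fall. Sox2 lies on chromosome 3 at 34650405-34652461, within the noncoding gene Sox2ot on the same strand. The level in KO was 31.7, 2.45, 0.361, 0.972, 0.855 and 2.59 CPM from stage 1 to stage 6, and in WT 25.2, 1.47, 0.495, 0.766, 0.974 and 1.82 CPM. Stage 3 held 9 KO and 11 WT UMIs, against 296 and 166 in stage 1, a fall of 87.9-fold (interval of the log2 ratio -7.60 to -5.51) in KO and 50.8-fold (-6.70 to -4.79) in WT. Stage 1 gave 64.8% of the germ-like Sox2 UMIs in KO and 55.5% in WT from 5.55% and 4.07% of the germ-like cells. Stage 6 again held 52 KO and 69 WT UMIs, fewer over both stages than the minimum for a call against stage 3, at 7.16-fold and 3.67-fold the stage 3 level.

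Utf1, a chromatin-associated protein of undifferentiated cells encoded on chromosome 7 at 139943789-139945112, fell in a single course. Its level was 24.9, 8.79, 3.93, 3.28, 2.49 and 1.89 CPM in KO and 36.2, 10.99, 3.56, 3.36, 2.73 and 2.58 CPM in WT. Stage 6 was lowest in both libraries, 13.2-fold under stage 1 in KO (log2 ratio -3.72, -4.25 to -3.22) and 14.0-fold in WT (-3.81, -4.16 to -3.46). No return was seen after stage 3.

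The promoters of these 3 genes are shown because all 3 levels fell at least 2-fold between stages 1 and 3, by unlike amounts, and then differed. Each is 300 bases of RefSeq sequence (GRCm38.p6) on the plus strand, from 250 bases before to 50 bases after an annotated start, with matches to the motifs searched in capitals. For Pou5f1 the window at the first exon is chr17:35505782-35506081, for Sox2 chr3:34649745-34650044 and for Utf1 chr7:139943606-139943905.
Pou5f1: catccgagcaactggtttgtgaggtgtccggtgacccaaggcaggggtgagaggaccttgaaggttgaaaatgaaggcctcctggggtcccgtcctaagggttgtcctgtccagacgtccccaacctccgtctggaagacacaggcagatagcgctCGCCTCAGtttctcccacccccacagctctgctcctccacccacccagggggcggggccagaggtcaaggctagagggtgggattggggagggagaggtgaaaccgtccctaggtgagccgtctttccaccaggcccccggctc
Sox2: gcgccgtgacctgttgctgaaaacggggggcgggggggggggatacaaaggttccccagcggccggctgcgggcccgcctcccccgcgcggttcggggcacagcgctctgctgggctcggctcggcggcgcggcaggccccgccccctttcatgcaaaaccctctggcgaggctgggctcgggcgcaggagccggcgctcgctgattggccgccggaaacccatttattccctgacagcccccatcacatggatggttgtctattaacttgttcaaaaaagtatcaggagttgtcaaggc
Utf1: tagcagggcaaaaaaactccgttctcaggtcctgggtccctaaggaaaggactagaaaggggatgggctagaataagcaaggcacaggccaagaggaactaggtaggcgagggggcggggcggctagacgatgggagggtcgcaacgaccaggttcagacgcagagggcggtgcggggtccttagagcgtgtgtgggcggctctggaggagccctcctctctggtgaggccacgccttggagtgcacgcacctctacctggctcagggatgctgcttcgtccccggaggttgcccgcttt
Searched on both strands were the octamer ATGCAAAT bound by OCT4, the SOX motif ACAATG, the E-box CACGTG, the E2F motif TCCCGC, the motif CNCCTCAG linked to STRA8 and its partner MEIOSIN, and the GR half-site AGAACA. The capitals in the Pou5f1 window are 1 match to CNCCTCAG, which begins 94 bases before the start, and 7.94% of the 32851 promoters in the table held that motif. The Sox2 and Utf1 windows held none of the 6 motifs. The Sox2 window ends at 34650044, before the gene start of 34650405 given above, so the bases at that start were not searched. The shares of all promoters were 1.74% for the octamer, 12.6% for SOX, 7.15% for the E-box, 19.98% for E2F and 19.0% for the GR half-site. A second Pou5f1 window, chr17:35508557-35508856, is not shown and held 1 match to the SOX motif, which begins 158 bases before its start. Windows were also found for Nanog, overlapping and each with 1 SOX match, and for Prdm1, with no match. No window was available for Dppa3, Dppa4, Dppa5a, Tfap2c or Prdm14, so their promoters were not searched.

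Nanog, the homeodomain factor of the core network on chromosome 6 at 122707489-122714633, was close to the detection limit. It gave 3 UMIs in 10180 KO germ-like cells and 9 in 6786 WT germ-like cells, and 6 of the 9 lay in WT stage 6. Somatic-like cells held 10 UMIs in KO and 6 in WT, so that its CPM was higher in soma (0.197 and 0.195) than in germ cells (0.025 and 0.075). No stage could be told from another at this depth.

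The 3 Dppa genes, named for developmental pluripotency association, each followed a course of their own. Dppa3 encodes Stella, a protein that guards DNA methylation in the early embryo and marks primordial germ cells, and lies on chromosome 6 at 122626410-122630272. Dppa3 stood at 126, 24.6, 6.50, 6.86, 5.36 and 5.18 CPM from stage 1 to stage 6 in KO, and at 145, 23.4, 6.80, 6.01, 4.48 and 13.6 CPM in WT. The fall from stage 1 to stage 3 was 19.4-fold in KO (log2 ratio -4.28, -4.52 to -4.04) and 21.4-fold in WT (-4.42, -4.68 to -4.17). After stage 3 the libraries parted. In KO the level stayed near that of stage 3, while WT stage 6 stood at 2.00-fold its stage 3 level (log2 ratio 1.00, 0.74 to 1.27), which is at the limit for a call. The 1870 WT stage 6 cells without a Sohlh1 UMI after thinning stood at 7.52 CPM (6.64 to 8.48), against 6.80 CPM (5.76 to 7.97) in WT stage 3. The higher WT level thus lay mostly in the cells with Sohlh1, described below.

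Dppa4, a nuclear protein that binds chromatin with its relative Dppa2, lies on chromosome 16 at 48283733-48294237. Its level was 32.4, 6.38, 2.61, 3.22, 3.61 and 8.66 CPM in KO and 24.4, 4.40, 1.35, 3.30, 2.77 and 8.75 CPM in WT. Like Pou5f1, Dppa4 was lowest in stage 3 and higher in stage 6, by 3.32-fold in KO (log2 ratio 1.73, 1.31 to 2.16) and 6.48-fold in WT (2.70, 2.15 to 3.29). This return also depended on the staging. In quintiles by the order used here, Dppa4 went from 3.76 CPM in the second to 4.90 CPM in the last in KO and from 3.32 to 7.38 CPM in WT, and in the planned order the last cluster over the first was at a log2 ratio of -3.63 in KO and -4.18 in WT. Unlike Pou5f1, its stage 6 level remained 3.74-fold under stage 1 in KO and 2.79-fold in WT.

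Dppa5a, a small RNA-binding protein of the KH-domain family encoded on chromosome 9 at 78367052-78368177, held more UMIs than any other member, 17993 in KO and 12279 in WT germ-like cells. Its level was 556, 326, 78.7, 75.6, 49.6 and 61.6 CPM in KO and 498, 273, 66.6, 55.5, 38.4 and 76.1 CPM in WT. Dppa5a left later than Pou5f1, Sox2, Utf1, Dppa3 and Dppa4. From stage 1 to stage 2 it kept 58.7% of its level in KO and 54.7% in WT, where Sox2 kept 7.73% and 5.82% and Dppa3 kept 19.5% and 16.1%. A Dppa5a UMI remained in 19.4% of KO and 17.1% of WT stage 3 cells after thinning, against 3.44% and 1.43% of somatic-like cells. Taking matches of 200 bases or longer with an identity of 95% and above, the transcripts of Dppa5a matched those of 7 other annotated genes, and Dppa3, Dppa4 and Nanog matched 1, 2 and 1, nearly all of them pseudogenes. Only Pigp, a match of Dppa5a over 417 bases at 95.9%, was itself in the matrix. Its level moved the other way, at 592 CPM in stage 1, 1523 in stage 3 and 606 in stage 6 of KO, and 571, 1463 and 605 CPM in WT. Counts of Dppa5a are uncertain to that extent, and the part of Pigp in them was not tested.

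Tfap2c, Prdm1 and Prdm14, the factors that specify primordial germ cells, gave few UMIs throughout. Tfap2c, the transcription factor AP-2γ on chromosome 2 at 172549593-172558622, was highest in stage 1 at 3.97 CPM in KO and 5.91 CPM in WT, and between 0.597 and 0.738 CPM in KO and between 0.495 and 1.11 CPM in WT from stage 3 on. Its UMIs over stages 1 and 6, 49 in KO and 81 in WT, were under the minimum for a call. Prdm1, the repressor Blimp1 on chromosome 10 at 44437177-44528501, went down slowly, at 3.75, 3.44, 2.61, 1.23, 1.01 and 0.746 CPM in KO and 3.18, 3.14, 1.89, 1.24, 0.779 and 0.554 CPM in WT. In stage 3 it kept 69.5% of its stage 1 level in KO and 59.4% in WT, more than any other member. Its interval for stage 3 over stage 1 reached across 0 in KO (log2 ratio -0.52, -1.14 to 0.11) and in WT (-0.75, -1.54 to 0.08). Prdm14, on chromosome 1 at 13113457-13127163, gave 17 UMIs in KO and 12 in WT germ-like cells, and 0 and 1 in somatic-like cells, where 0 of 50817747 KO UMIs allows up to 0.059 CPM.

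Within stage 1 the members could be followed along Stra8 itself. Cells were split by their Stra8 UMIs after thinning to 3000 UMIs, into 62 KO and 24 WT cells with 0 or 1, 308 and 149 with 2 to 5, and 195 and 103 with 6 or more. These are ranges of a measured level and not cell types, and 108 KO and 51 WT cells had 1 or 2 Stra8 UMIs, next to the lower limit. Dppa3 stood at 217, 131 and 88.3 CPM over the 3 ranges in KO and at 309, 148 and 112 CPM in WT. From the lowest to the highest range its log2 ratio was -1.30 (-1.55 to -1.04) in KO and -1.47 (-1.76 to -1.17) in WT. Utf1 stood at 39.6, 27.2 and 16.3 CPM in KO and 63.8, 42.6 and 22.4 CPM in WT, and Pou5f1 at 80.2, 54.1 and 42.4 CPM in KO and 107, 53.4 and 61.8 CPM in WT. The cells of stage 1 with least Stra8 thus had the highest Dppa3, Utf1 and Pou5f1 of any stage or Stra8 range. Sox2 was lower with more Stra8 in KO (51.9, 34.8 and 20.1 CPM), while in WT its ranges of 30.9, 25.8 and 23.2 CPM differed by less than counting error. Dppa5a was nearly level, at 585, 565 and 531 CPM in KO and 507, 491 and 507 CPM in WT.

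Among stages 1, 2, 3 and 6, the share of cells with several members was highest in stage 1 and next highest in stage 2. At full depth, which differs between libraries and stages, 60.4% of KO and 67.0% of WT stage 1 cells held UMIs of at least 3 members. The share was 18.2% and 23.8% in stage 2, 2.93% and 2.58% in stage 3, and 3.51% and 13.1% in stage 6. By number, WT had 263 such cells in stage 6 and 185 in stage 1. After thinning to 3000 UMIs, where many UMIs are lost, KO stage 1 cells held a UMI of 1.38 members on average and WT stage 1 cells of 1.36. The mean was 0.734 and 0.660 in stage 2 and 0.356 and 0.388 in stage 6. In stage 3 it was 0.275 and 0.253, and no stage 3 cell of either library held 3 or more members. At least 3 members were found in 10.97% of KO and 10.1% of WT stage 1 cells, and in 1.59% and 1.48% of stage 2 cells. Stage 6, where the summed Pou5f1 stood close to its stage 1 level, held 0.428% and 0.200% such cells.

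Over the 12 points of stage and library, the levels of the members were compared as log2(CPM + 1), a description over points that share 2 libraries. Dppa3 and Tfap2c had the highest Pearson r of any pair (0.98), followed by Utf1 with Dppa3 (0.96) and Sox2 with Dppa4 (0.95). Pou5f1 stood apart, with r between -0.45 and 0.58 to the other 7 members. Among 12118 other genes, those most like Pou5f1 were Sac3d1, BC022687 and Pgpep1 (r 0.96 each), which in WT also stood lower in stage 3 than in stages 1 and 6. Most like Sox2 were Dab1, Acaa1a and Sp5 (0.99 each), most like Utf1 were Tk1, a thymidine kinase of dividing cells, Slc22a18 and Hist1h3b (0.99 each), and most like Dppa3 were Emb, Tmub1 and Pnpla2 (0.99 each). Dppa4 was closest to Wwtr1, Npc2 and Hsp90ab1 (0.99 each), Dppa5a to Gapdh, Hspe1 and Gpx1 (0.99 to 1.00), Tfap2c to Lama1, Phlda2 and Plcb3 (0.98 to 0.99), and Prdm1 to Psmb6, Emc8 and Rbbp7 (0.98 each).

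A list of 35 other genes of pluripotent and primordial germ cells gave a wider view. Between stages 1 and 6, 9 of 20 tested were at least 2-fold lower in KO and 9 of 22 in WT, against 12.3% and 10.3% of all genes. These were the same 9 genes: Alpl, Lin28a, Dnd1, Mycn, Sall4, Tet1, Ifitm3, Ifitm1 and L1td1. Alpl, the alkaline phosphatase long used to stain primordial germ cells, went from 35.6 to 2.08 CPM in WT and from 32.0 to 1.24 CPM in KO. Lin28a, an RNA-binding protein that blocks let-7 microRNAs, went from 18.0 to 1.61 CPM in WT and from 22.1 to 0.697 CPM in KO. Dnd1, Mycn, Sall4 and Tet1 were 8.20-fold, 8.09-fold, 6.36-fold and 5.29-fold lower in WT stage 6. Against them Cdh1, E-cadherin, was higher in stage 6 in both libraries (1.82 to 6.91 CPM in WT and 1.82 to 5.57 CPM in KO), and Klf4 was called in WT alone, at 2.03-fold in WT and 1.96-fold in KO. Dnmt3b, a de novo DNA methyltransferase, stood 1.91-fold higher in WT and 1.07-fold in KO, and was called in neither. Those at least 2-fold higher in stage 6 than in stage 1 were 1 of 20 in KO and 2 of 22 in WT, against 16.4% and 18.6% of all genes. From stage 1 to stage 3, 14 of 18 tested in KO and 12 of 17 in WT were lower, against 16.7% and 15.7% of all genes. From stage 3 to stage 6, 7 of 13 and 9 of 20 were higher, against 18.2% and 21.6%.

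In somatic-like cells the members were lower than in germ-like cells. Of the 8 members tested, 7 were at least 2-fold higher in germ-like cells in each library, against 22.0% of all genes in KO and 25.9% in WT, and the exception in both was Prdm1. The sort and the class names rest on germ cell identity, so that this count describes the classes. The KO level of Pou5f1 was 33.5 CPM in germ-like against 5.96 CPM in somatic-like cells, and its WT levels were 44.1 and 6.02 CPM. Dppa5a stood at 148 and 22.8 CPM in KO and at 102 and 10.5 CPM in WT.

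Germ transcripts were found in somatic-like cells at a like rate for genes that soma does not use. The 8 germ markers (Dazl, Ddx4, Mael, Sycp3, Smc1b, Hormad1, Taf7l and Stk31) had a somatic-like level of 16.9% to 19.0% of their germ-like level in KO and 11.7% to 13.8% in WT. By this measure the somatic-like level of Pou5f1 (17.8% of germ-like in KO, 13.6% in WT), of Dppa4 (18.0% and 9.56%) and of Dppa5a (15.4% and 10.3%) lay at or under that of the markers. Sox2 (10.97% and 7.86%) and Dppa3 (11.4% and 7.17%) lay under it. None of these 5 values is read as expression in soma. Utf1 stood higher in KO, at 28.8% with 83 UMIs. In WT it stood at 16.8% with 28 UMIs. Its WT somatic-like level was 0.91 CPM (0.605 to 1.32) against 5.43 CPM in germ-like cells, an interval that takes in the range of the markers. In KO it was 1.63 CPM (1.30 to 2.03) against 5.67 CPM, an interval above that range. Utf1 passed the markers of the same class in KO granulosa-like cells (35.4%, markers 15.8% to 17.7%). It also did in epithelia-like cells (29.5% in KO, markers 10.6% to 13.3%, and 25.4% in WT, markers 9.14% to 10.7%). In theca-like cells of both libraries it lay under them. After thinning, a Utf1 UMI was held by 1.27% of germ-like and 0.190% of somatic-like cells in KO and by 1.36% and 0.312% in WT. The germ-like share was the higher in both, which does not separate germ transcripts found in soma from expression there. Expression of Utf1 in soma was not tested.

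Prdm1 was the exception, and among somatic-like cells its level was highest in 2 classes. In endothelia-like cells it stood at 27.0 CPM in KO (38 UMIs in 137 cells, interval 19.1 to 37.0) and 32.4 CPM in WT (12 UMIs in 30 cells, 16.7 to 56.5), against 1.96 and 1.29 CPM in germ-like cells. In immune-like cells it stood at 7.50 CPM in KO and 11.8 CPM in WT, from 4 and 5 UMIs. A Prdm1 UMI was found in 6.57% of KO and 13.3% of WT endothelia-like cells after thinning, against 0.048% and 0.106% of granulosa-like cells. The germ markers stood at 23.8% of their germ-like level in KO and 2.08% in WT endothelia-like cells, and no single cell held more than 5 of the 38 or 3 of the 12 UMIs. Prdm1 was thus higher in endothelia-like than in germ-like cells of both libraries, and the other 3 somatic-like classes held at most 0.442 CPM.

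**Figure D3:**
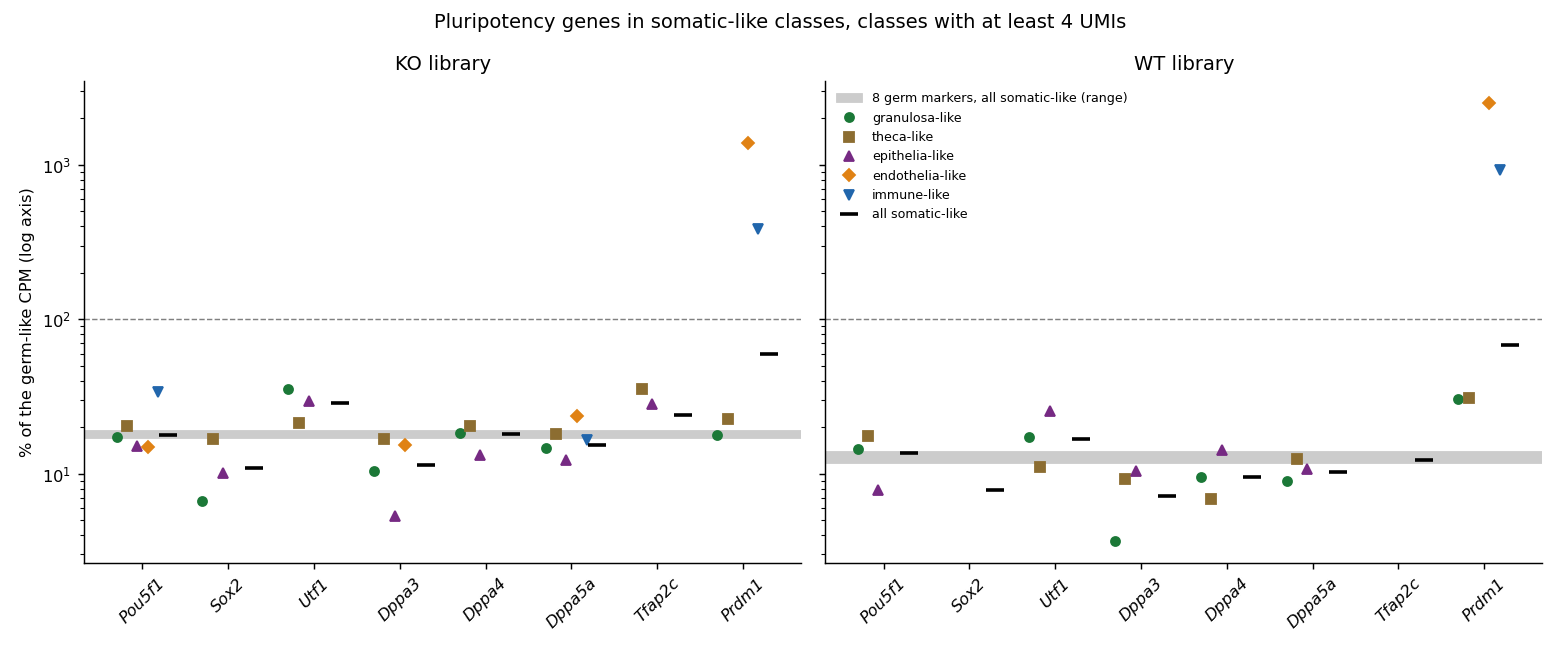
Level of 8 members in 5 somatic-like classes and in all somatic-like cells, as a percent of the germ-like level of the same library (vertical axis, log axis), for KO (left) and WT (right), with the grey band giving the range of the 8 germ markers in all somatic-like cells (16.9% to 19.0% in KO, 11.7% to 13.8% in WT) and classes under 4 UMIs left out. Prdm1 alone rises past the dashed line at 100%, in endothelia-like cells (1376% in KO, 2514% in WT) and immune-like cells.

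Between KO and WT, members were called within stages about as rarely as all genes, taken over the stages together. Only 1 of the 33 member and stage pairs with at least 100 UMIs was at least 1.5-fold apart, Dppa3 in stage 6. All other called counts were 0: 0 of 6 members in stage 1, 0 of 6 in stage 2, 0 of 5 in each of stages 3, 4 and 5, and 1 of 6 in stage 6. The shares of all genes called were 2.99%, 4.80%, 3.37%, 2.55%, 2.69% and 4.55% in stages 1 to 6. These comparisons set 1 library against another, and genotype cannot be told apart from the pool of embryos, the cell sort and the droplet run.

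Dppa3 in stage 6 held 104 UMIs at 5.18 CPM in KO and 516 UMIs at 13.6 CPM in WT, 2.63-fold lower in KO (log2 ratio -1.39, -1.71 to -1.09). In stages 1 to 5 its log2 ratio of KO over WT lay between -0.21 and 0.26. Stage 1 was also lower in KO (-0.21, -0.33 to -0.08), and the intervals of stages 2 to 5 reached across 0. The difference between stages was not tested.

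The WT excess of Dppa3 in stage 6 lay mostly in the few cells with Sohlh1. A Sohlh1 UMI was held after thinning by 133 of 2003 WT and 49 of 2336 KO stage 6 cells, with median depths of 19357 and 8416 UMIs. In these WT cells Dppa3 stood at 94.2 CPM (251 UMIs), against 7.52 CPM (265 UMIs) in the other WT stage 6 cells, a log2 ratio of 3.65 (3.39 to 3.90). In KO it stood at 4.23 CPM (2 UMIs) against 5.20 CPM (102 UMIs). In the 52 WT cells with 2 or more Sohlh1 UMIs Dppa3 stood at 127 CPM, near its WT stage 1 level of 145 CPM, with UMIs in 19 of the 52 cells and at most 43 in a single cell. WT cells with Sohlh1 therefore held 251 of the 516 stage 6 UMIs of Dppa3, and the KO cells with Sohlh1 held almost none.

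Other oocyte genes moved with it. In WT stage 6 cells with 0, 1 and 2 or more Sohlh1 UMIs, Nobox, a homeobox gene of the primordial follicle, stood at 4.31, 38.2 and 58.4 CPM, and Figla, a factor of the oocyte and its coat, at 155, 511 and 708 CPM. In KO, Nobox stood at 4.43, 16.1 and 30.2 CPM and Figla at 146, 265 and 825 CPM, from only 11 cells in the last range. Dppa4 was also higher in WT stage 6 cells with Sohlh1 (20.3 against 7.88 CPM, log2 ratio 1.36, 0.91 to 1.79) and Pou5f1 was lower (35.6 against 60.2 CPM, -0.75, -1.07 to -0.46). In KO the intervals of Dppa3, Dppa4 and Pou5f1 between these cells reached across 0, and that of Dppa5a did not (93.0 against 60.8 CPM, 0.61, 0.15 to 1.05).

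**Figure D4:**
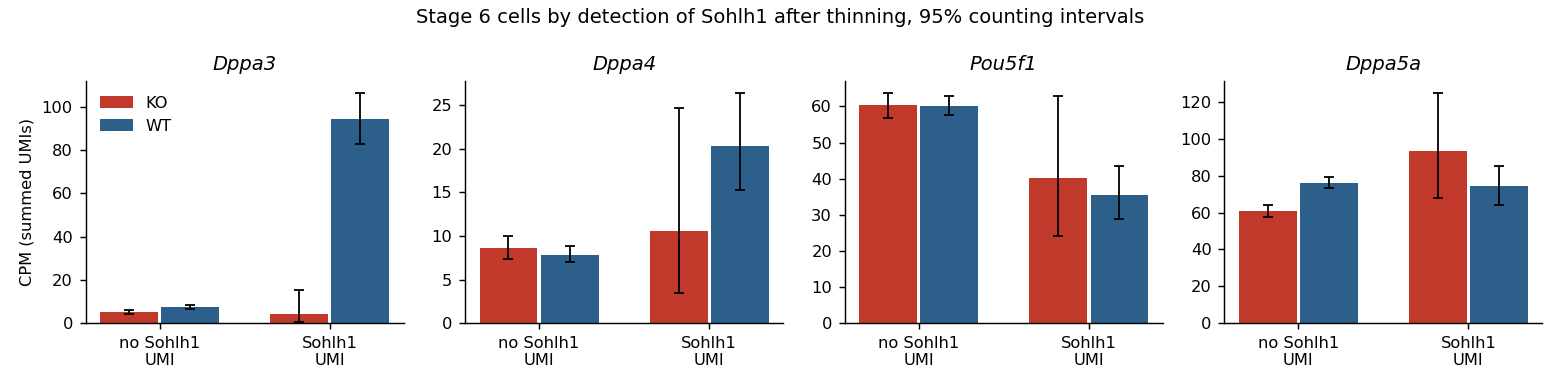
Level of 4 members (vertical axes, CPM from 0) in stage 6 cells without and with a Sohlh1 UMI after thinning, in KO (left bar of each pair) and WT (right bar), with 95% counting intervals. Dppa3 stood at 94.2 CPM in the 133 WT cells with Sohlh1 and between 4.23 and 7.52 CPM in the other 3 sets of cells.

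Stage 6 of the WT library differed from that of KO in other ways too. Sohlh1 stood at 37.5 CPM in WT and 10.6 CPM in KO, Stra8 at 114 and 24.6 CPM, Rec8 at 5.64 and 1.74 CPM and Rhox5 at 15.3 and 5.82 CPM, and the median depth was 17535 and 7503.5 UMIs. Without cells that held a Stra8 UMI after thinning, the log2 ratio of Dppa3 was -1.33 (-1.67 to -1.01), and without cells that held a Sohlh1 UMI it was -0.53 (-0.88 to -0.20), under 1.5-fold. The part of depth and of these other cells of stage 6 in the difference was not tested.

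Pou5f1 was lower in KO in stages 3, 4 and 5, with log2 ratios of -0.30 (-0.56 to -0.04), -0.35 (-0.51 to -0.20) and -0.53 (-0.64 to -0.41). In stages 1, 2 and 6 its intervals reached across 0, at -0.19, 0.18 and 0.03. Utf1 was lower in KO in stage 1 by 1.46-fold (log2 ratio -0.54, -0.81 to -0.28), and its intervals reached across 0 in the other 5 stages. Dppa4 was higher in KO in stages 1 and 2 (0.41, 0.13 to 0.69, and 0.54, 0.03 to 1.08), Sox2 in stage 1 (0.33, 0.06 to 0.62), and Dppa5a in stages 1 to 5 by 0.16 to 0.44. All these differences were under 1.5-fold. With too few UMIs for a call, 65 in KO and 30 in WT, Dppa4 in stage 3 stood 1.93-fold higher in KO (log2 ratio 0.95, 0.30 to 1.63).

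**Figure D5:**
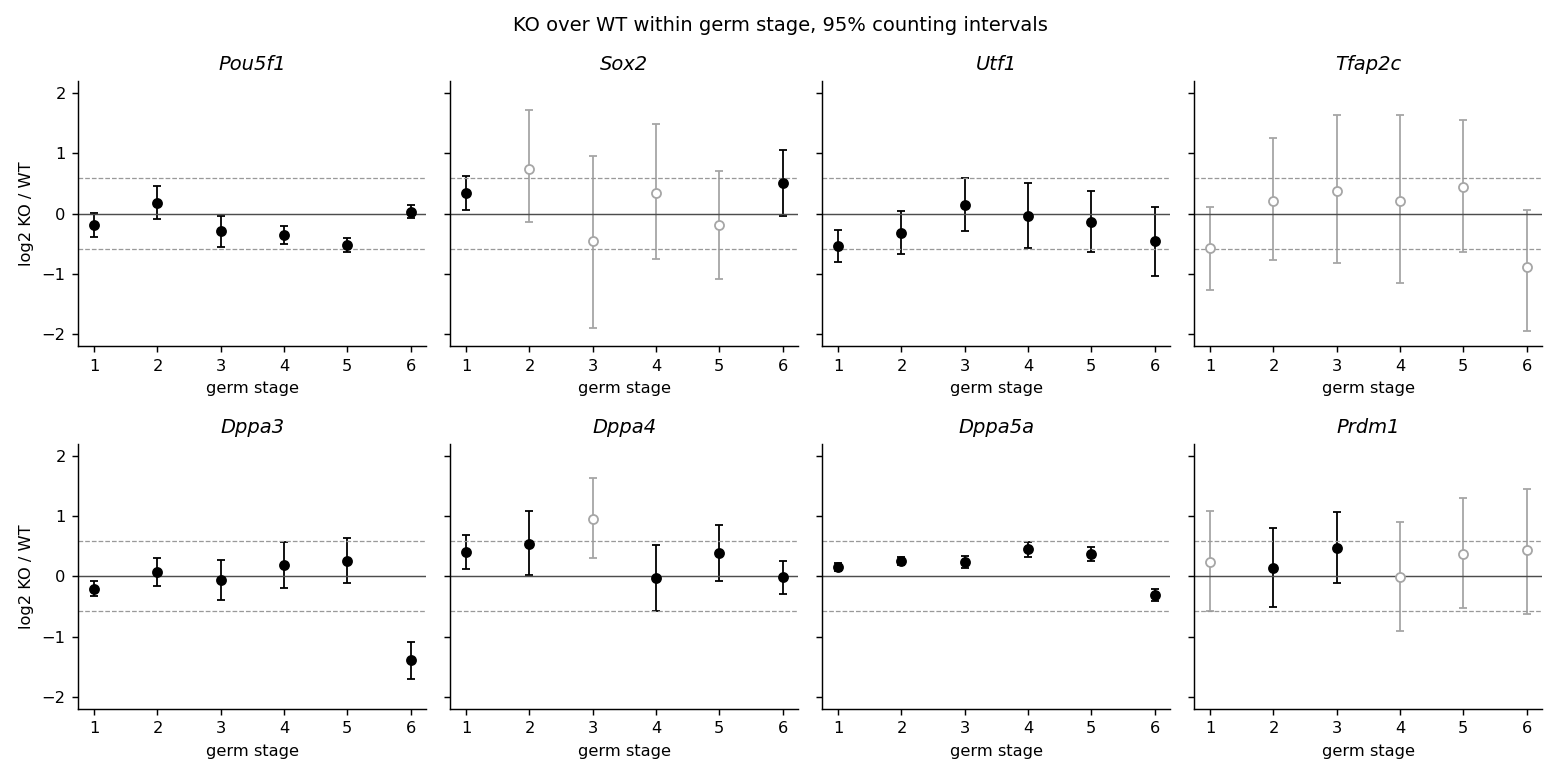
Log2 ratio of KO over WT (vertical axes) by germ stage (horizontal axes) for 8 members, with 95% counting intervals, filled points where both libraries together gave at least 100 UMIs and open grey points where they did not, and dashed lines at 1.5-fold. The filled point of Dppa3 in stage 6, at -1.39, is the only filled point past the dashed lines.

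Over all germ-like cells, without regard to stage, 2 of 8 members were at least 1.5-fold apart, against 5.38% of all genes. Sox2 stood at 3.77 CPM in KO and 2.48 CPM in WT (log2 ratio 0.60, 0.39 to 0.82), and Prdm1 at 1.96 and 1.29 CPM (0.61, 0.31 to 0.91). Neither was past 1.5-fold in a stage in which it had 100 UMIs. Stage 1, where both genes were highest, made up 5.55% of KO and 4.07% of WT germ-like cells. Stages 1 and 2 together made up 19.18% and 11.05%, and Prdm1 was nearly as high in stage 2 (3.44 CPM in KO, 3.14 CPM in WT). The part of these stages in the pooled ratios was not tested. Of the list of 35 genes, Zfp42 (19.9 CPM in KO, 30.2 in WT), Cdh1 (2.18 and 3.60 CPM), Nanos3 (0.610 and 1.05 CPM) and Tcl1 (0.874 and 1.32 CPM) were lower in KO by at least 1.5-fold over all germ-like cells, and Eras (0.659 and 0.374 CPM) was higher, 5 of 25 tested.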

How the data were processed

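Transcripts were measured in 1 KO and 1 WT library of sorted E15.5 ovary cells. The authors deposited UMI counts for each gene and barcode, made with Cell Ranger (3.0.2 per the file headers) on mm10, without normalization; the gene annotation is not given in the sources used here. Whole-number counts were used as deposited.

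Cells passed the filter of the study (WT 1500 to 6500 genes and 5500 to 40000 UMIs, KO 1200 to 5500 genes and 3000 to 30000 UMIs, under 10% mitochondrial UMIs). Doublets were not removed in the main analysis. Scanpy 1.11.5 was used for ln(value + 1) of counts per 10000, 2000 variable genes, 30 principal components, 20 neighbours and Leiden clustering at resolution 0.5 (seed 1), with depth, genes and mitochondrial and ribosomal shares regressed out. The members and 35 related genes were kept out of the variable genes. Clusters were named "-like" by markers, and names may differ from those of the study.

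Germ clusters were to be ordered by a prophase score. That score was highest in the middle and placed the cluster led by Sohlh1 beside that led by Rhox5, so clusters were ordered instead by later prophase minus premeiotic and meiotic entry markers, a change made after the clusters were seen. A germ cluster with over 10% called doublets was left out of the order. UMIs were summed over cells and given as counts per 1000000 (CPM), with exact Poisson intervals, log2 ratios with exact conditional binomial intervals and shares with Clopper-Pearson intervals, all at 95% and for counting error only. The limit for a count of 0 is 3 UMIs over the library's class. The genes called are those past the fold with at least 100 UMIs over both sides. No test was run, since cells do not replicate a group. Counting was tested on simulated data. Named genes are the members, the 6 that fell most and 3 that fell least of the related genes in WT and those past 1.5-fold between libraries, the 3 genes most like each member, and stage markers. L1td1, Ifitm1 and Ifitm3 were named after their values were seen, as were the splits by Stra8 and Sohlh1. The members and lists were chosen with earlier results of these data known.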

Additional observations from a re-analysis of the deposited data

Results flagged for a closer look

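The direction of the KO against WT difference of Dppa5a was not the same in every stage. In stage 4 Dppa5a was higher in KO, with a log2 ratio of 0.44 (95% counting interval 0.33 to 0.56), and in stage 6 it was lower in KO, at -0.31 (-0.40 to -0.21). The result was noted because these intervals lie on opposite sides of 0. The difference between stages was not tested, since each group is 1 library. Without the stage 6 cells that held a Stra8 UMI after thinning, 120 in KO and 145 in WT, the stage 6 ratio was 0.06 (-0.04 to 0.17), and those cells had a median depth of 6377 UMIs in KO and 33105 UMIs in WT.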

How the results depend on the processing

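The order of stages reported here, by an index of meiotic markers, was chosen after seeing the data in place of the planned prophase score, and so were quintiles by that index and the removal of stage 6 cells with Stra8. In the planned order the last cluster over the first was -2.46 in KO and -2.35 in WT for Pou5f1 (log2), against 0.17 and -0.05 as reported. Of 692 log2 ratios of single members recomputed, 526 moved by no more than their counting interval, 166 moved further and 0 called ratios changed sign. Settings that kept the stages gave 92 ratios each and weigh most in that total, against 12 for each setting that staged the cells anew. Of those 12, only 1 stayed within its interval at Leiden resolution 0.3 and 1 in quintiles by the prophase score. In quintiles by the order index and in the planned order, 0 of 12 did. The counts of members at least 2-fold lower in stage 6, 5 in each library, came to 3 in KO and 2 in WT without cells holding markers of another class, and to 2 and 2 after thinning to 3000 UMIs, where only 4 and 3 members kept enough UMIs. Of the 35 related genes, 9 in each library, 3 and 2 were lower without cells with other markers and 4 and 2 after thinning, whereas in KO 14 were lower by the prophase score, as quintiles or as the planned order, and 14 at 1.5-fold. Members higher in WT germ-like cells numbered 4 after thinning in place of 7. The single member and stage pair past 1.5-fold became 4 with a minimum of 30 UMIs, 3 at Leiden resolution 0.3, 7 in quintiles by the prophase score, 2 in quintiles by the order index and 14 at the smaller fold tried. For these counts of members and related genes, the share of all genes called under each setting is not given here. The counts thus show how far the result moved with the setting, and were not set against all genes. In quintiles by the order index the log2 ratio of KO over WT for Dppa3 was -1.252 in the last quintile, and Pou5f1 stood at 28.1, 21.0, 35.0, 41.5 and 47.5 CPM in KO and 29.5, 30.99, 43.4, 55.7 and 60.2 CPM in WT, so its low point there was shallower in KO and lay in the first quintile in WT. The share of germ-like cells with a Pou5f1 UMI was 9.06% in KO and 11.4% in WT after thinning and 26.7% and 38.3% before it. No paired analysis was possible because each group holds 1 library. Depth limits Nanog, Prdm14 and Tfap2c most.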
